A study of Mus musculus with 9 samples.

Results

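Suprabasal and basal cells of the hair bulb, the base of the growing hair follicle, were compared by bulk RNA sequencing of mouse back skin in Anagen VI, the full growth phase of the hair cycle. The comparison takes 4 of the 9 libraries of the study, chosen by their sample labels: 2 of suprabasal hair bulb (suprabasal HB) and 2 of basal hair bulb (basal HB). The other 5 libraries, 2 of outer root sheath (ORS) and 3 of hair follicle stem cells (HFSC), entered the same fit and are given here for context. In the fit they also bear on the estimated spread between libraries, on the scaling and on which genes had enough counts to be tested. All 9 came from mice at postnatal day 30 that carry the strain label Lhx2-GFP (CD1), a green fluorescent reporter of the follicle transcription factor Lhx2 on an outbred albino stock, and the sex label Mixed. The extraction text names K14-H2BGFP mice in place of that strain, a line in which the basal keratinocyte promoter of Keratin 14 drives a fluorescent histone, and nothing else in the labels settles which line supplied the cells. The sort used P-cadherin, Sca-1, CD34, GFP and the integrins α6 and β1. Where each gate was set, how many animals were pooled and whether the replicates are separate animals are not given in the sources used here, so the p-values measure only the spread between these samples, which may be technical.

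In the hair bulb, a single basal layer of matrix cells sits on the basement membrane that wraps the dermal papilla. Cells that leave this layer move up, divide for some time and then commit to the layers of the hair shaft (medulla, cortex and cuticle) or to the inner root sheath that moulds it, and each layer is known by its own keratins. Melanocytes sit above the papilla among the shaft precursors, into which they normally transfer pigment granules, and in an albino stock they are present and transcribe pigment genes without making pigment.

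The 2 suprabasal HB libraries held 50752545 and 45438637 expected counts and the 2 basal HB libraries 60990600 and 63511683. Across genes, log2 CPM, which are counts scaled to library size, correlated at 0.986 between the suprabasal HB pair and 0.991 between the basal HB pair, against 0.947 to 0.951 across the 2 layers. The layers differ in a transcript that marks sex: Xist, which is made from the inactive X chromosome of female cells, had 65.33 and 46.51 expected counts in suprabasal HB, against 24706.95 and 20062.81 in basal HB. The Y-linked Ddx3y had 4545.86 and 4299.89 expected counts in suprabasal HB, against 4829.55 and 4787.51 in basal HB. The basal HB libraries thus held transcripts of both sexes and the suprabasal HB libraries next to no Xist, which goes against the shared label Mixed, and in every result that follows the sex of the animals and the layer cannot be told apart. Of the X-linked genes tested, 26.1% passed the test described next, against 28.1% of the autosomal genes.

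Of 20491 genes tested with edgeR's quasi-likelihood test, 2679 were higher and 3042 lower in suprabasal HB than in basal HB at a Benjamini-Hochberg adjusted p under 0.05. That is 13.1% and 14.8% of the genes tested and 27.9% in both directions together. Counts of called members in the gene lists below are read against these shares. At least 2-fold, 774 were higher (3.78%) and 2047 lower (9.99%), so large decreases outnumbered large increases. The split of the calls depends on scaling: 46.8% of them were higher here, against 20.5% with limma on log2(TPM + 1) and 19.3% on log2(TPM + 0.1), where TPM are the deposited values scaled to transcript length. On those scales the median gene moved by -0.16 and -0.25 on the log2 scale, so small differences of either sign are read against that shift. Without basal HB replicate 1, 873 genes were higher and 1888 lower. Without basal HB replicate 2, 1295 were higher and 1843 lower, and without suprabasal HB replicate 2, 1411 were higher and 2232 lower. In these fits the lone library was assumed to vary like the other groups.

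The named markers of shaft, sheath and pigment cells did not all move one way. Krt35, an early keratin of the hair cortex and cuticle (chromosome 11, 100092193 to 100096241, minus strand), had 1431 and 1581 CPM in suprabasal HB, against 115 and 92.6 CPM in basal HB. Krt35 was 14.5-fold higher (log2 fold change 3.86 ± 0.57 SE, adjusted p = 0.0016). Krt71, a keratin of the inner root sheath (chromosome 15, 101733949 to 101743109, minus strand), had 905 and 479.6 CPM in suprabasal HB, against 120.4 and 90.7 CPM in basal HB. Krt71 was 6.56-fold higher (log2 fold change 2.71 ± 0.51 SE, adjusted p = 0.0052). Dct, a melanin synthesis enzyme (chromosome 14, 118012790 to 118052244, minus strand), had 5209 and 5494 CPM in suprabasal HB, against 489 and 348 CPM in basal HB. Dct was 12.8-fold higher (log2 fold change 3.68 ± 0.68 SE, adjusted p = 0.0048). For all 3 genes both suprabasal HB libraries lay above both basal HB libraries, a lack of overlap that 68.5% of all genes tested showed in one direction or the other. Tchh, which encodes trichohyalin, the protein of the granules of the inner root sheath and medulla (chromosome 3, 93442330 to 93449077, plus strand), ran the other way at 628 and 622 CPM in suprabasal HB, against 3818 and 4193 CPM in basal HB. Tchh was 6.41-fold lower in suprabasal HB (log2 fold change -2.68 ± 0.28 SE, adjusted p = 3.0e-04). In bulk samples such as these, fewer cells of a type and less RNA per cell cannot be told apart. The labelled layers were also checked against epidermal and gland markers. Atoh1 of Merkel cells was at 0 in the 4 hair bulb libraries, Krt20 of Merkel cells at most 0.71 TPM and the sebaceous gland gene Awat2 at most 2.63 TPM. Mc5r, also of the sebaceous gland, had 0.77 and 0.21 TPM in suprabasal HB, against 5.17 and 4.80 TPM in basal HB, and was called lower. The epidermal keratins Krt1 and Krt10 were at most 3.03 and 14.0 TPM, both in suprabasal HB replicate 1. In the 5 ORS and HFSC libraries Krt35 ranged from 12.4 to 50.2 CPM, Krt71 from 143.5 to 482 CPM, Dct from 19.97 to 108 CPM and Tchh from 85.1 to 171 CPM. Krt35, Dct and Tchh lay below both basal HB libraries in all 5, and Krt71 lay above both.

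**Figure D1:**
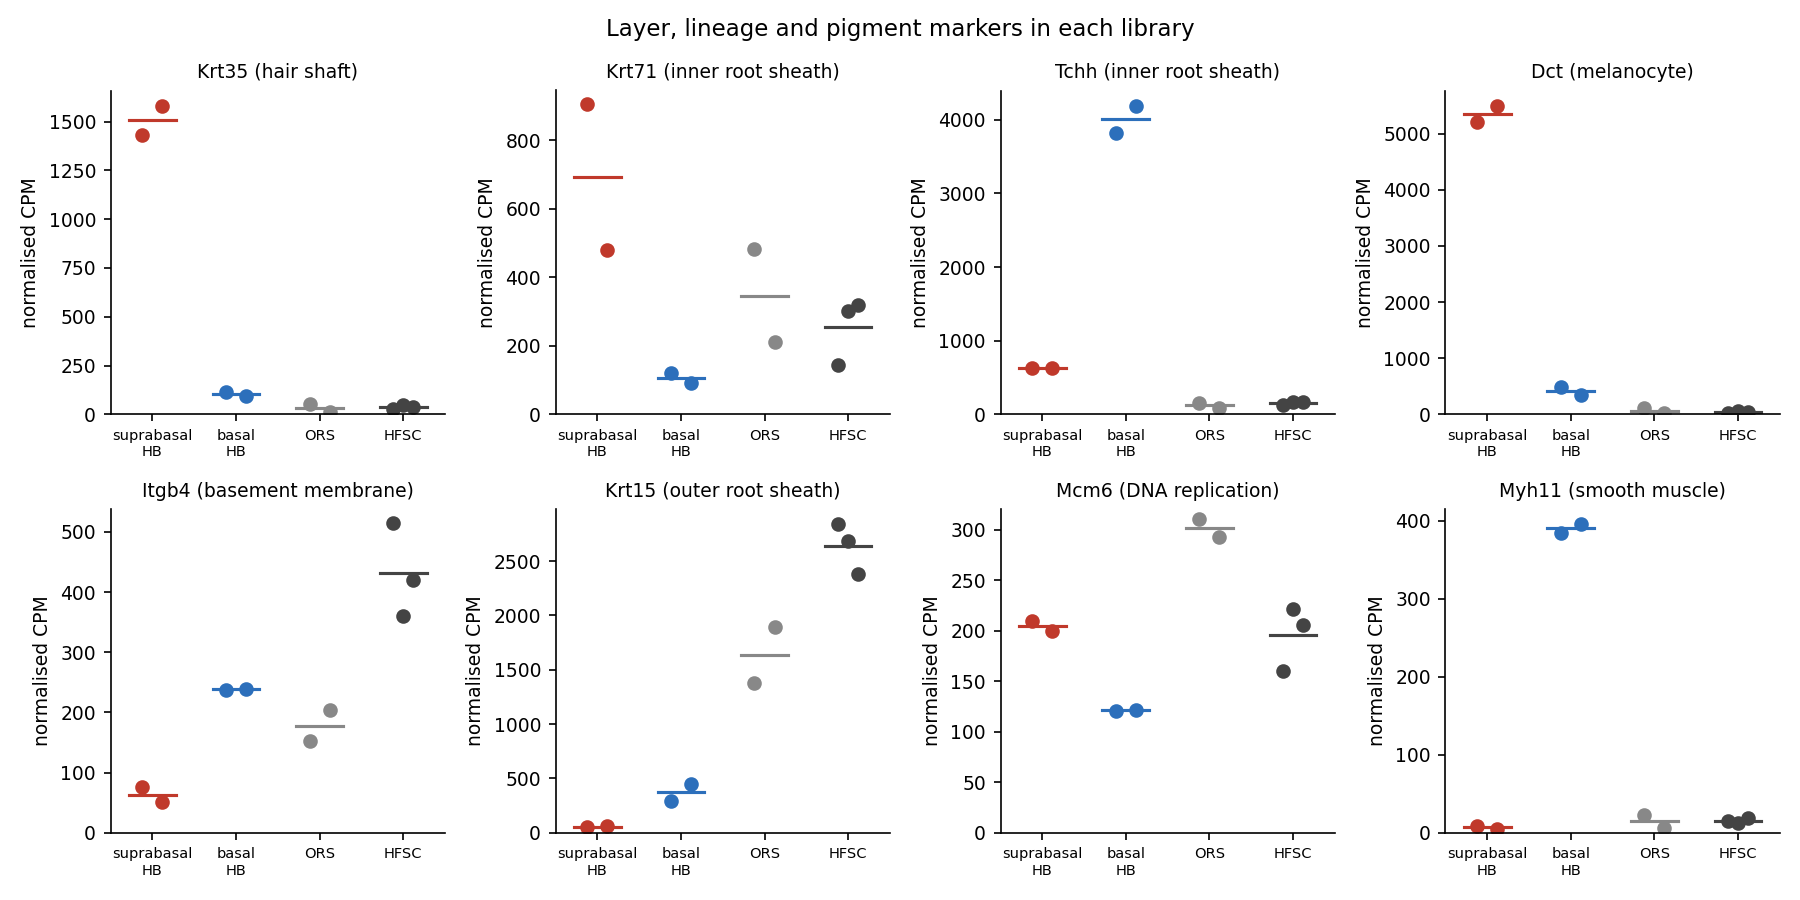
CPM, on linear axes from 0, of 8 marker genes in the libraries of suprabasal HB, basal HB, ORS and HFSC; each point is 1 library and each line the group mean. Krt35, Krt71, Dct and Mcm6 lie higher in suprabasal HB than in basal HB, and Tchh, Itgb4, Krt15 and Myh11 lie lower.

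Pigment genes stood out among the largest changes. Among autosomal protein-coding genes with at least 10 mean CPM in the higher group, the 10 largest increases were B3galt5, Pmel, Tyrp1, Oca2, Npy, Slc45a2, Synpr, Mcoln3, Krt35 and Tspan10, of which Pmel, Tyrp1, Oca2 and Slc45a2 are genes of pigment granules. B3galt5, a galactosyltransferase of glycolipid and glycoprotein chains, had 86.3 and 107 CPM in suprabasal HB, against 7.04 and 4.45 CPM in basal HB. B3galt5 was 16.8-fold higher (log2 fold change 4.07 ± 0.58 SE, adjusted p = 0.0013). Npy, the precursor of neuropeptide Y, had 87.5 and 65.9 CPM in suprabasal HB, against 5.49 and 4.06 CPM in basal HB. The call was lost for Pmel at adjusted p = 0.0602 without basal HB replicate 2, for Tyrp1 at adjusted p = 0.0664 without basal HB replicate 1 and 0.0871 without basal HB replicate 2 and for Tspan10 at adjusted p = 0.0544 without basal HB replicate 2. The 10 largest decreases were Olfr558, Slc12a1, Dgkb, Tm4sf4, Olfr78, Myog, Susd5, Dkk2, Pln and Pcp4l1, each with under 1 CPM in both suprabasal HB libraries. Olfr78, an olfactory receptor also known from blood vessels, had 0.320 and 0.470 CPM in suprabasal HB, against 45.1 and 42.9 CPM in basal HB, and Pln, the phospholamban of muscle, had 0.283 and 0.246 CPM in suprabasal HB, against 18.5 and 19.1 CPM in basal HB. Dkk2, a secreted WNT antagonist, had 0.697 and 0.336 CPM in suprabasal HB, against 43.3 and 46.5 CPM in basal HB. Dkk2 was 85.3-fold lower (log2 fold change -6.41 ± 0.38 SE, adjusted p = 2.8e-05).

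Hair shaft keratins, the hard keratins that fill cortex and cuticle cells, were higher almost without exception: 11 of the 13 tested members were higher and none lower, with a median log2 fold change of 2.59 against 0 over all genes tested. The list held 16 names, of which Krt40 had too few counts and Krt85 and Krt87 have no row under that symbol. After Krt35, the most abundant per length was Krt83, a cuticle keratin in mouse, at 330.2 and 347 TPM in suprabasal HB, against 70.6 and 54.4 TPM in basal HB, with 6.58-fold higher CPM (log2 fold change 2.72 ± 0.35 SE, adjusted p = 8.2e-04). Krt31 had 25.7 and 24.2 CPM in suprabasal HB, against 3.22 and 3.02 CPM in basal HB. Krt31 was 8.01-fold higher (log2 fold change 3.001 ± 0.22 SE, adjusted p = 6.1e-05). Krt36 had 16.3 and 15.2 CPM in suprabasal HB, against 1.92 and 1.84 CPM in basal HB. Krt36 was 8.35-fold higher (log2 fold change 3.06 ± 0.30 SE, adjusted p = 2.3e-04). Krt84, at 4.20 and 4.86 CPM in suprabasal HB, against 1.03 and 0.863 CPM in basal HB, was among the least abundant of those that were higher. In each of these the lower suprabasal HB library was above the higher basal HB library. Krt32, with 1.04 and 0.761 CPM in suprabasal HB, against 0.349 and 0.476 CPM in basal HB, lost its call at adjusted p = 0.146 without basal HB replicate 1 and 0.102 without suprabasal HB replicate 1, and Krt34, with 0.566 and 2.22 CPM in suprabasal HB, against 0.204 and 0.461 CPM in basal HB, did not pass (adjusted p = 0.081). Krt39 had 1.34 and 0.694 CPM in suprabasal HB, against 0.829 and 0.877 CPM in basal HB and did not pass (adjusted p = 0.81). Reads of near-identical copies may be split between them in Krt31, Krt33a, Krt33b, Krt34, Krt81, Krt83 and Krt86, since 0.337 to 0.581 of the 25-base words in each, as a fraction, recur in another gene. The hair keratins together took 0.214 ± 0.00878% of the counts in suprabasal HB, against 0.0217 ± 0.00346% in basal HB (mean ± SD, n = 2 each).

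Keratin-associated proteins, which crosslink hair keratins late in differentiation, were mostly too low to test. Of 56 genes whose symbol starts with Krtap, 8 had enough counts to be tested, 2 of these 8 were higher and none lower, and their median log2 fold change was -0.13, which turned to 0.17 without suprabasal HB replicate 1. Krtap11-1 had 9.39 and 15.5 CPM in suprabasal HB, against 2.997 and 3.11 CPM in basal HB. Krtap11-1 was 4.07-fold higher (log2 fold change 2.02 ± 0.25 SE, adjusted p = 6.5e-04). Krtap7-1 had 10.5 and 28.4 CPM in suprabasal HB, against 6.45 and 6.34 CPM in basal HB, with its call lost at adjusted p = 0.0934 without basal HB replicate 1, 0.0870 without basal HB replicate 2 and 0.0858 without suprabasal HB replicate 2. Without suprabasal HB replicate 2, 3 members were lower, and without either ORS replicate 1 was. Krtap15, the second of the 8 by TPM in basal HB, had 10.4 and 28.2 CPM in suprabasal HB, against 41.2 and 50.97 CPM in basal HB and did not pass (adjusted p = 0.052).

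The inner root sheath list split by gene class. Of 20 tested members 10 were higher and 7 lower, with a median log2 fold change of 0.76. All 7 tested sheath keratins other than Krt26 were higher, namely Krt71 as given above, Krt25, Krt27, Krt28, Krt72, Krt73 and Krt74. Krt25 had 807 and 533 CPM in suprabasal HB, against 183 and 168 CPM in basal HB. Krt25 was 3.82-fold higher (log2 fold change 1.93 ± 0.37 SE, adjusted p = 0.0059). Krt72 had 17.1 and 13.5 CPM in suprabasal HB, against 3.14 and 2.74 CPM in basal HB. Krt72 was 5.20-fold higher (log2 fold change 2.38 ± 0.34 SE, adjusted p = 0.0014). Krt73 had 427 and 209 CPM in suprabasal HB, against 46.9 and 30.01 CPM in basal HB, and its call was lost at adjusted p = 0.0738 without basal HB replicate 2. In each of them suprabasal HB replicate 1 lay above replicate 2, and both lay above basal HB. The 7 lower members were Tchh, Tchhl1, Padi1, Padi3, Tgm3, Prdm1 and Sostdc1, of which Padi1, Padi3 and Tgm3 are enzymes that modify or crosslink proteins such as trichohyalin. Tchhl1, a relative of trichohyalin, had 4.75 and 14.5 CPM in suprabasal HB, against 145 and 167 CPM in basal HB. Tchhl1 was 16.3-fold lower (log2 fold change -4.03 ± 0.57 SE, adjusted p = 0.0013). Padi3, the enzyme that turns arginines of trichohyalin into citrullines, had 216 and 354 CPM in suprabasal HB, against 1046 and 1190.3 CPM in basal HB. Padi3 was 3.92-fold lower (log2 fold change -1.97 ± 0.23 SE, adjusted p = 5.6e-04). Krt26, with 14.4 and 30.8 CPM in suprabasal HB, against 50.5 and 47.6 CPM in basal HB, did not pass (adjusted p = 0.082), nor did Dlx3 (adjusted p = 0.15) and Cdsn (adjusted p = 0.65). Without either basal HB replicate 1 or basal HB replicate 2, 6 members were higher: Krt27 was lost at adjusted p = 0.0619 without HFSC replicate 2, 0.0732 without HFSC replicate 3, 0.175 without basal HB replicate 1, 0.142 without basal HB replicate 2, 0.136 without suprabasal HB replicate 1 and 0.0885 without suprabasal HB replicate 2, Krt74 at adjusted p = 0.132 without basal HB replicate 1, 0.136 without basal HB replicate 2 and 0.255 without suprabasal HB replicate 1, Gata3, a lineage factor of the sheath, at adjusted p = 0.0924 without basal HB replicate 1, 0.0812 without basal HB replicate 2 and 0.0585 without suprabasal HB replicate 1 and Lgals7 at adjusted p = 0.0579 without basal HB replicate 1. Among the lower members Tgm3 was lost at adjusted p = 0.0663 without basal HB replicate 1, 0.0588 without basal HB replicate 2, 0.0585 without suprabasal HB replicate 1 and 0.0733 without suprabasal HB replicate 2, Prdm1 at adjusted p = 0.0542 without suprabasal HB replicate 1 and Sostdc1 at adjusted p = 0.0741 without basal HB replicate 1, 0.0762 without basal HB replicate 2 and 0.104 without suprabasal HB replicate 2. Ctsz, a lysosomal protease, completed the higher members at 149 and 126 CPM in suprabasal HB, against 64.0 and 70.2 CPM in basal HB. The list as a whole took 0.457 ± 0.0741% of counts in suprabasal HB, against 0.803 ± 0.00772% in basal HB (mean ± SD, n = 2 each), a gap that shrank to 0.395% against 0.437% of TPM.

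**Figure D2:**
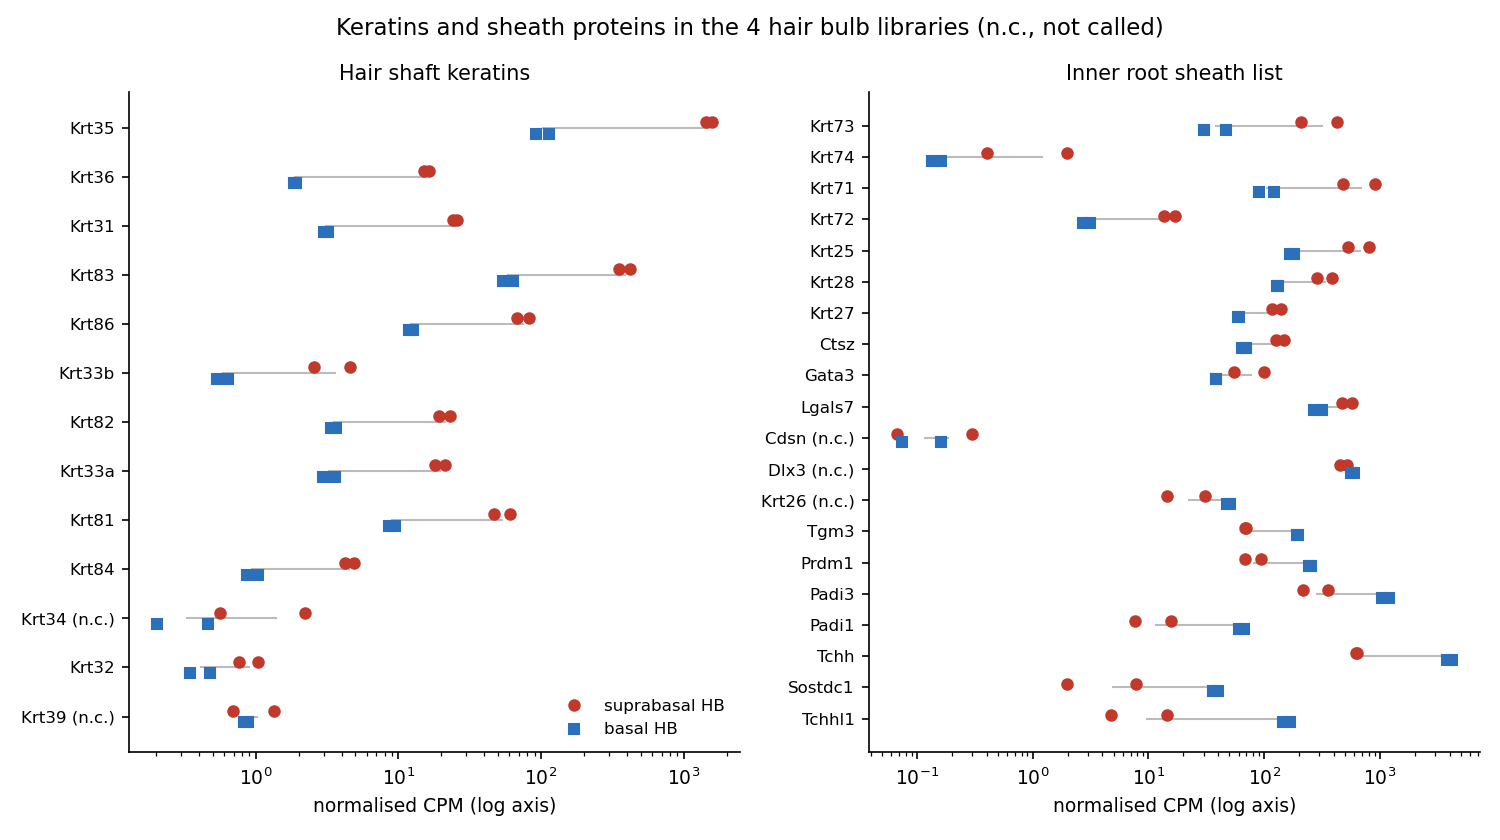
CPM (log axis) of each tested hair shaft keratin (left) and inner root sheath gene (right); circles are the 2 suprabasal HB libraries, squares the 2 basal HB libraries, grey lines join the group means, and n.c. marks genes that did not pass an adjusted p of 0.05. Circles lie right of squares for hair keratins and sheath keratins that passed, and left of them for Tchh, Tchhl1, Padi1 and Padi3.

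Starting regions of 3 of these genes are shown because sheath keratins and trichohyalin moved in opposite directions. Each is 250 bases before to 50 after the start, from RefSeq on GRCm38.p6, 5′ to 3′ on the strand of the gene, and capitals mark TATAAA, the TATA box, and CTTTGAA, a LEF/TCF core, on either strand. The windows are chr15:101743048-101743347 (minus strand) for Krt71, chr11:99322902-99323201 (minus strand) for Krt25 and chr3:93442080-93442379 (plus strand) for Tchh.
Krt71: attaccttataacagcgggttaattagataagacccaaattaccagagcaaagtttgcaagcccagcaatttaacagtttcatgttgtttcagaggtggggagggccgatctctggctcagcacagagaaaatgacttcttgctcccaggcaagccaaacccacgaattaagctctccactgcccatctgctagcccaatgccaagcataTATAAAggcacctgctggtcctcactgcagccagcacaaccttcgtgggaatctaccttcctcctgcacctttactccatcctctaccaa
Krt25: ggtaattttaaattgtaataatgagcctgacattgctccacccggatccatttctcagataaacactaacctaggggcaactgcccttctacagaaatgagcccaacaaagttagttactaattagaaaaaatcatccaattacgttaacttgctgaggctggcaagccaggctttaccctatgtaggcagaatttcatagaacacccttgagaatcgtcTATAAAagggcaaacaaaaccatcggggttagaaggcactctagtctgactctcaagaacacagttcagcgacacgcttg
Tchh: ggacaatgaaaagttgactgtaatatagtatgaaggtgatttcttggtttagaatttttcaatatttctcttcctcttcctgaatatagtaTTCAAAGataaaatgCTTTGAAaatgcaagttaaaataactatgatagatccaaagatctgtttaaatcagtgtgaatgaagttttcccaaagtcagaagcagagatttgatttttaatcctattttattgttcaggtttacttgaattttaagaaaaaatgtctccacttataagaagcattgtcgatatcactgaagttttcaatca
TATAAA on either strand was in the window of 6 of the 9 hair shaft keratins that have one (66.7%) and of 8 of 17 inner root sheath genes (47.1%), against 15.7% of 27025 genes with a window. CTTTGAA on either strand was in 5 of the same 9 hair shaft keratins (55.6%) and in 3 of 17 inner root sheath genes (17.6%), against 5.93% of all genes. Krt71 and Krt25 hold the first motif and not the second, and Tchh holds the second and not the first. Other members of the sheath list do not follow this contrast. Tgm3, called lower, and Krt26, not called, hold the first motif, and Krt28, called higher, holds both. These matches describe the letters only.

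Enzymes that crosslink and cornify moved both ways, with 5 of 20 tested higher, 9 lower and a median log2 fold change of 0.17 that turned to -0.11 on log2(TPM + 1). St14, the membrane protease matriptase, had 382 and 390.2 CPM in suprabasal HB, against 123 and 122 CPM in basal HB. St14 was 3.16-fold higher (log2 fold change 1.66 ± 0.11 SE, adjusted p = 4.4e-05). Hephl1, a copper-dependent oxidase, had 12.6 and 23.9 CPM in suprabasal HB, against 2.21 and 1.96 CPM in basal HB. Hephl1 was 8.71-fold higher (log2 fold change 3.12 ± 0.43 SE, adjusted p = 0.0011). Both suprabasal HB libraries lay above both basal HB libraries. Padi1, another citrullinating enzyme, had 7.65 and 15.6 CPM in suprabasal HB, against 60.5 and 66.98 CPM in basal HB. Padi1 was 5.48-fold lower (log2 fold change -2.45 ± 0.34 SE, adjusted p = 0.0012). Tgm2, a transglutaminase of many tissues, had 6.97 and 4.70 CPM in suprabasal HB, against 26.5 and 28.4 CPM in basal HB. Tgm2 was 4.68-fold lower (log2 fold change -2.23 ± 0.27 SE, adjusted p = 5.6e-04). The count of lower enzymes was 5 without basal HB replicate 1, 4 without basal HB replicate 2 and 5 without suprabasal HB replicate 1. Keratins of the outer root sheath and companion layer showed no higher member: of 9 tested, 6 were lower, with a median log2 fold change of -0.97, and 3 were lower without basal HB replicate 2. Krt75, the keratin of the companion layer, had 193 and 249.8 CPM in suprabasal HB, against 1060.3 and 1129 CPM in basal HB. Krt75 was 4.94-fold lower (log2 fold change -2.30 ± 0.18 SE, adjusted p = 7.0e-05). Krt15 and Krt17 had 52.1 and 62.3 CPM in suprabasal HB, against 294 and 449 CPM in basal HB and 341 and 374 CPM in suprabasal HB, against 909 and 948 CPM in basal HB in that order.

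Transcription factors of the hair lineages moved both ways, with 12 of 54 tested higher, 17 lower and a median log2 fold change of -0.23. Foxn1, the nude gene, which acts in differentiating matrix cells, had 27.4 and 23.5 CPM in suprabasal HB, against 7.68 and 6.26 CPM in basal HB. Foxn1 was 3.65-fold higher (log2 fold change 1.87 ± 0.21 SE, adjusted p = 4.5e-04). Grhl3, a driver of epidermal barrier genes, had 29.2 and 21.95 CPM in suprabasal HB, against 4.04 and 3.48 CPM in basal HB. Grhl3 was 6.80-fold higher (log2 fold change 2.77 ± 0.22 SE, adjusted p = 8.8e-05). Zfp750, a differentiation factor in the same pathway, had 118 and 103 CPM in suprabasal HB, against 22.3 and 18.4 CPM in basal HB. Zfp750 was 5.43-fold higher (log2 fold change 2.44 ± 0.18 SE, adjusted p = 6.6e-05). Runx3, at 77.03 and 54.3 CPM in suprabasal HB, against 12.3 and 7.08 CPM in basal HB, was called higher with its call lost at adjusted p = 0.0758 without basal HB replicate 2. The 3 factors Foxn1, Grhl3 and Zfp750 kept their call without each of the 9 libraries in turn. Tcf7l1, a repressor of WNT target genes found in stem and outer sheath cells, had 7.94 and 5.51 CPM in suprabasal HB, against 29.1 and 34.4 CPM in basal HB. Tcf7l1 was 4.71-fold lower (log2 fold change -2.23 ± 0.28 SE, adjusted p = 6.9e-04). Barx2 had 2.47 and 1.61 CPM in suprabasal HB, against 9.50 and 10.1 CPM in basal HB. Barx2 was 4.77-fold lower (log2 fold change -2.25 ± 0.28 SE, adjusted p = 6.6e-04). Foxq1, which is needed for the hair medulla in the satin mouse, had 98.0 and 188 CPM in suprabasal HB, against 649 and 719 CPM in basal HB. Foxq1 was 4.78-fold lower (log2 fold change -2.26 ± 0.33 SE, adjusted p = 0.0014). The higher factors numbered 7 without basal HB replicate 2.

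Genes of the basement membrane and of the hemidesmosome, the plaque that anchors a cell to it, were lower as a group. Of 39 tested 27 were lower and 3 higher, with a median log2 fold change of -1.04. The 27 lower members include Itga6 and Itgb1, which encode the integrins α6 and β1. The sort used both proteins, so their decrease is no independent result. How far the sort on these proteins shaped the other members, Itgb4 below among them, was not tested. Col4a1, a chain of the collagen of basement membranes (chromosome 8, 11198423 to 11312826, minus strand), had 83.8 and 51.7 CPM in suprabasal HB, against 438 and 502 CPM in basal HB. Col4a1 was 6.94-fold lower (log2 fold change -2.79 ± 0.27 SE, adjusted p = 2.1e-04). Lamb3, a chain of the laminin that epithelia rest on, had 6.50 and 4.10 CPM in suprabasal HB, against 29.7 and 32.9 CPM in basal HB. Lamb3 was 5.88-fold lower (log2 fold change -2.56 ± 0.22 SE, adjusted p = 1.4e-04). Itgb4, the hemidesmosomal integrin, had 75.7 and 51.1 CPM in suprabasal HB, against 237 and 239 CPM in basal HB. Itgb4 was 3.75-fold lower (log2 fold change -1.91 ± 0.23 SE, adjusted p = 6.4e-04). In these genes no suprabasal HB library reached the level of a basal HB library, and suprabasal HB kept a measurable level of each. Egfl6, a matrix protein made by follicle epithelium, and Lama1, a laminin chain, went the other way. Egfl6 had 69.6 and 103 CPM in suprabasal HB, against 11.3 and 9.27 CPM in basal HB. Egfl6 was 8.40-fold higher (log2 fold change 3.07 ± 0.21 SE, adjusted p = 4.4e-05). Lama1 had 7.26 and 9.09 CPM in suprabasal HB, against 0.742 and 0.476 CPM in basal HB. Lama1 was 13.4-fold higher (log2 fold change 3.74 ± 0.39 SE, adjusted p = 2.8e-04). Npnt, the third higher member, had 58.8 and 40.6 CPM in suprabasal HB, against 15.6 and 14.6 CPM in basal HB, and its call was lost at adjusted p = 0.0779 without basal HB replicate 1, 0.0805 without basal HB replicate 2 and 0.0610 without suprabasal HB replicate 1. Type IV collagen genes are also expressed by muscle and connective tissue, and markers of those cells moved with this list: all 10 tested smooth muscle and dermal sheath genes were lower, with a summed level of 52.4 to 90.0 TPM in suprabasal HB, against 1549 to 1641 TPM in basal HB. None of the 10 was at 0 in any hair bulb library. Their part in the result was not tested.

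Genes of cell contacts moved both ways, also within the family of desmosomal cadherins. Of 22 tested genes of desmosomes and adherens junctions 9 were higher and 5 lower. Their median log2 fold change was 0.24, which turned to -0.03 on log2(TPM + 1), where 4 were higher and 8 lower. Dsg1a, a desmosomal cadherin of upper layers, had 217 and 132 CPM in suprabasal HB, against 41.2 and 35.6 CPM in basal HB. Dsg1a was 4.55-fold higher (log2 fold change 2.19 ± 0.29 SE, adjusted p = 9.7e-04). Dsg4, the desmoglein of the hair cortex, had 77.99 and 61.3 CPM in suprabasal HB, against 14.5 and 12.7 CPM in basal HB and Dsc1 44.8 and 26.9 CPM in suprabasal HB, against 8.26 and 4.95 CPM in basal HB. Dsg4 lost its call at adjusted p = 0.0651 without basal HB replicate 1 and 0.0721 without basal HB replicate 2, and Dsc1 at adjusted p = 0.0551 without basal HB replicate 2. The cadherins of lower layers went down: Dsg3 had 79.4 and 74.3 CPM in suprabasal HB, against 250.3 and 239 CPM in basal HB. Dsg3 was 3.19-fold lower (log2 fold change -1.67 ± 0.12 SE, adjusted p = 5.1e-05). Dsg2 had 122 and 105 CPM in suprabasal HB, against 321 and 331 CPM in basal HB. Dsg2 was 2.88-fold lower (log2 fold change -1.53 ± 0.12 SE, adjusted p = 7.9e-05). No library of one layer overlapped the other in these 5 genes. Without basal HB replicate 1, 4 members were higher, and without basal HB replicate 2, 1 member was. Reads of Dsg1a may be split with its near-identical copies, since a fraction of 0.442 of its 25-base words also occurs in other genes. Plakoglobin (Jup), with 334 and 326 CPM in suprabasal HB, against 357 and 377 CPM in basal HB, did not pass (adjusted p = 0.35). Tight and gap junction genes had 7 of 21 tested higher (33.3%) and 3 lower (14.3%), against 13.1% and 14.8% over all genes tested. Their median log2 fold change was 0.68, and 5 were lower on log2(TPM + 1). Ocln, the tight junction protein occludin, had 15.4 and 8.41 CPM in suprabasal HB, against 2.62 and 2.47 CPM in basal HB. Ocln was 4.68-fold higher (log2 fold change 2.23 ± 0.36 SE, adjusted p = 0.0023). Marveld2, its relative at corners where 3 cells meet, had 20.4 and 13.2 CPM in suprabasal HB, against 3.67 and 3.18 CPM in basal HB. Gjb6, a gap junction connexin, had 46.4 and 49.997 CPM in suprabasal HB, against 116 and 127 CPM in basal HB. Gjb6 was 2.52-fold lower (log2 fold change -1.33 ± 0.18 SE, adjusted p = 0.0011).

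DNA replication genes were higher in suprabasal HB, with small individual changes: 45 of 48 tested were higher and none lower, and their log2 fold changes ran from -0.00 to 1.25 with a median of 0.64. E2f2, an activating E2F factor of the G1 to S step, had 125 and 101.3 CPM in suprabasal HB, against 50.8 and 44.8 CPM in basal HB. E2f2 was 2.37-fold higher (log2 fold change 1.25 ± 0.22 SE, adjusted p = 0.0042). Ccne1, the cyclin that opens S phase, had 30.8 and 32.05 CPM in suprabasal HB, against 15.6 and 16.1 CPM in basal HB. Ccne1 was 1.98-fold higher (log2 fold change 0.99 ± 0.11 SE, adjusted p = 4.2e-04). Mcm6, a subunit of the replicative helicase, had 209 and 199 CPM in suprabasal HB, against 121 and 122 CPM in basal HB. Mcm6 was 1.69-fold higher (log2 fold change 0.75 ± 0.15 SE, adjusted p = 0.0059). In all 3 genes the 2 layers did not overlap. The count was 27 without basal HB replicate 1, 28 without suprabasal HB replicate 2, and 24 and 23 on the log2(TPM + 1) and log2(TPM + 0.1) scales. Mcm6 is shown with its start, chr1:128359656-128359955 (minus strand) on GRCm38.p6 from RefSeq, because its window holds the E2F core more than once; capitals mark TTTGGCGC.
Mcm6: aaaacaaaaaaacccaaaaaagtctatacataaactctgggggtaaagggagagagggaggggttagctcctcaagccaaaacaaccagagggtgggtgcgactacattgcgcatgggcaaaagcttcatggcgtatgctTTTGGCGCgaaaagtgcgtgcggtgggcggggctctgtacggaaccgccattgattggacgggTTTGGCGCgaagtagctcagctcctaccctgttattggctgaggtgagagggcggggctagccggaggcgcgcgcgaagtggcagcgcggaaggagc
TTTCCCGC or TTTGGCGC on either strand was in 14 of the 38 replication genes with a window (36.8%), against 1.8% of 27025 genes.

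Mitosis genes moved less. Of 42 tested 10 were higher and none lower, with a median log2 fold change of 0.21 that turned to -0.03 on log2(TPM + 1), where none was called. Mybl2, a transcription factor of late cell cycle genes, had 49.3 and 45.1 CPM in suprabasal HB, against 30.4 and 30.9 CPM in basal HB. Mybl2 was 1.54-fold higher (log2 fold change 0.62 ± 0.09 SE, adjusted p = 0.0018). Nuf2, of the kinetochore, had 45.9 and 47.1 CPM in suprabasal HB, against 30.3 and 32.9 CPM in basal HB with its call lost at adjusted p = 0.0626 without basal HB replicate 1. Mki67, the Ki-67 proliferation marker, had 702 and 671 CPM in suprabasal HB, against 569 and 529 CPM in basal HB and did not pass (adjusted p = 0.2). The count fell to 1 without basal HB replicate 1, 2 without basal HB replicate 2, 2 without suprabasal HB replicate 2, 6 without suprabasal HB replicate 1, and 4 without HFSC replicate 3. Whether replication genes changed more than mitosis genes was not tested.

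Inhibitors of cyclin-dependent kinases and other genes of cell cycle exit were more often lower than higher, with 7 of 23 tested lower, 2 higher and a median log2 fold change of -0.16. Cdkn1c, which encodes the inhibitor p57, had 7.94 and 5.57 CPM in suprabasal HB, against 47.0 and 59.98 CPM in basal HB. Cdkn1c was 7.90-fold lower (log2 fold change -2.98 ± 0.21 SE, adjusted p = 4.8e-05). Cdkn2b, which encodes an inhibitor of the cyclin D kinases, had 9.63 and 14.5 CPM in suprabasal HB, against 37.6 and 45.5 CPM in basal HB. Cdkn2b was 3.45-fold lower (log2 fold change -1.79 ± 0.26 SE, adjusted p = 0.0014). Btg2, an antiproliferative gene, had 116 and 62.6 CPM in suprabasal HB, against 243 and 239 CPM in basal HB. Btg2 was 2.70-fold lower (log2 fold change -1.43 ± 0.25 SE, adjusted p = 0.0034). In these 3 genes every suprabasal HB library was below every basal HB library. Cdkn1b, for p27, had 148 and 137 CPM in suprabasal HB, against 147 and 151.2 CPM in basal HB and Cdkn1a, for p21, 124 and 146 CPM in suprabasal HB, against 203 and 221 CPM in basal HB, and neither passed (adjusted p = 0.67 and 0.073). The higher members Cdkn2c, at 52.7 and 53.8 CPM in suprabasal HB, against 42.1 and 44.7 CPM in basal HB, and Gadd45a, at 24.1 and 20.97 CPM in suprabasal HB, against 14.9 and 15.2 CPM in basal HB, had fold changes of 1.23 and 1.5004. Cdkn2c lost its call at adjusted p = 0.0716 without HFSC replicate 1, 0.0604 without HFSC replicate 2, 0.0863 without HFSC replicate 3, 0.201 without basal HB replicate 1, 0.0906 without basal HB replicate 2, 0.0822 without suprabasal HB replicate 1 and 0.160 without suprabasal HB replicate 2, and Gadd45a at adjusted p = 0.0625 without HFSC replicate 1, 0.0502 without HFSC replicate 2, 0.0700 without HFSC replicate 3, 0.155 without basal HB replicate 1, 0.122 without basal HB replicate 2, 0.143 without suprabasal HB replicate 1 and 0.0718 without suprabasal HB replicate 2. On log2(TPM + 1) 12 members were lower.

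Of 12 tested G1 cyclins, their kinases and MYC family genes, 6 were higher and 1 lower, with a median log2 fold change of 0.33. Ccnd1, for cyclin D1, had 272 and 198 CPM in suprabasal HB, against 94.9 and 87.1 CPM in basal HB. Ccnd1 was 2.58-fold higher (log2 fold change 1.37 ± 0.24 SE, adjusted p = 0.0036). Myc had 58.2 and 54.9 CPM in suprabasal HB, against 23.03 and 26.2 CPM in basal HB. Myc was 2.29-fold higher (log2 fold change 1.198 ± 0.16 SE, adjusted p = 0.001). Cdk6 had 27.9 and 33.7 CPM in suprabasal HB, against 52.3 and 54.4 CPM in basal HB. Cdk6 was 1.73-fold lower (log2 fold change -0.79 ± 0.17 SE, adjusted p = 0.0083), while Cdk4, its partner in the same step, had 428 and 489 CPM in suprabasal HB, against 306 and 345 CPM in basal HB and lost its call at adjusted p = 0.126 without basal HB replicate 1 and 0.102 without suprabasal HB replicate 2. Cdk2 had 333 and 292 CPM in suprabasal HB, against 77.3 and 71.6 CPM in basal HB, but its gene overlaps the pigment gene Pmel on the opposite strand over 837 bases (chromosome 10, 128704195 to 128705031), and whether the counting used strand is not given in the sources used here, so its increase is uncertain. The count was 3 without basal HB replicate 1 and 3 without suprabasal HB replicate 2.

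Genes that build ribosomes and mitochondria showed small increases and no decrease. In ribosome biogenesis 20 of 35 tested were higher and none lower, with a median log2 fold change of 0.46. Nop56, a core protein of the particles that modify ribosomal RNA, had 282 and 277 CPM in suprabasal HB, against 169 and 177 CPM in basal HB. Nop56 was 1.62-fold higher (log2 fold change 0.69 ± 0.10 SE, adjusted p = 0.0013). Of 50 nuclear genes of oxidative phosphorylation 33 were higher and none lower, with a median of 0.48, and Cox6a1, a subunit of cytochrome c oxidase, had 224 and 237 CPM in suprabasal HB, against 131 and 149 CPM in basal HB. Cox6a1 was 1.65-fold higher (log2 fold change 0.72 ± 0.11 SE, adjusted p = 0.002). Of 77 mitochondrial ribosomal proteins 46 were higher and none lower, with a median of 0.44, and Mrps24 had 37.9 and 44.9 CPM in suprabasal HB, against 23.2 and 27.4 CPM in basal HB. Of 13 genes of the mitochondrial genome 7 were higher and none lower, with a median of 0.80, and mt-Nd1, a subunit of complex I, had 4769 and 5116 CPM in suprabasal HB, against 2391 and 2768 CPM in basal HB. mt-Nd1 was 1.92-fold higher (log2 fold change 0.94 ± 0.18 SE, adjusted p = 0.0052) with its call lost at adjusted p = 0.0540 without basal HB replicate 1. The mitochondrial genome took 4.36 ± 0.00192% of counts in suprabasal HB, against 2.74 ± 0.203% in basal HB (mean ± SD, n = 2 each). The calls of these 4 lists changed with the libraries in the fit. Leaving out 1 hair bulb library leaves 1 in its layer, and calls over all genes then fell as well. Lost calls therefore do not show that 1 library carries a result. Without basal HB replicate 1, ribosome biogenesis had 5 higher, nuclear oxidative phosphorylation 1, mitochondrial ribosomal proteins 2 and the mitochondrial genome 0. Without suprabasal HB replicate 2 the counts were 5, 5, 4 and 4 in the same order, and without basal HB replicate 2 the first 3 of these lists had 10, 18 and 15. Without HFSC replicate 3 nuclear oxidative phosphorylation had 17 and mitochondrial ribosomal proteins 22. On log2(TPM + 1) the 4 lists had 8, 7, 12 and 2. In mitochondrial biogenesis 8 of 17 were higher and none lower, with a median of 0.33, and 1 was higher without basal HB replicate 1, 2 without suprabasal HB replicate 2 and 4 on log2(TPM + 1). Ppargc1a, a coactivator of mitochondrial genes, had 11.01 and 10.3 CPM in suprabasal HB, against 2.40 and 1.89 CPM in basal HB. Ppargc1a was 4.97-fold higher (log2 fold change 2.31 ± 0.29 SE, adjusted p = 6.4e-04).

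Glycolysis genes changed member by member, with 6 of 23 tested higher, 5 lower and a median log2 fold change of 0.18 that turned to -0.12 on log2(TPM + 1). Hk1, a hexokinase, which phosphorylates glucose, had 41.0 and 36.01 CPM in suprabasal HB, against 20.5 and 20.7 CPM in basal HB. Hk2, another hexokinase, had 71.2 and 72.4 CPM in suprabasal HB, against 43.3 and 41.0 CPM in basal HB. Hk2 was 1.71-fold higher (log2 fold change 0.77 ± 0.09 SE, adjusted p = 5.8e-04). Pdk1, which holds pyruvate back from mitochondria, had 50.5 and 46.0 CPM in suprabasal HB, against 29.4 and 31.8 CPM in basal HB. Pdk1 was 1.58-fold higher (log2 fold change 0.66 ± 0.12 SE, adjusted p = 0.0047), a call that was lost on log2(TPM + 1). Slc2a1, the glucose transporter GLUT1, had 27.1 and 26.7 CPM in suprabasal HB, against 38.7 and 43.98 CPM in basal HB. Slc2a1 was 1.53-fold lower (log2 fold change -0.62 ± 0.10 SE, adjusted p = 0.0029). These 4 kept their call without each of the 9 libraries, and the list counts did not: 3 were higher without basal HB replicate 1, basal HB replicate 2 or suprabasal HB replicate 1, and 1 was lower without basal HB replicate 1 and 3 without each of basal HB replicate 2, suprabasal HB replicate 1 and suprabasal HB replicate 2.

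**Figure D3:**
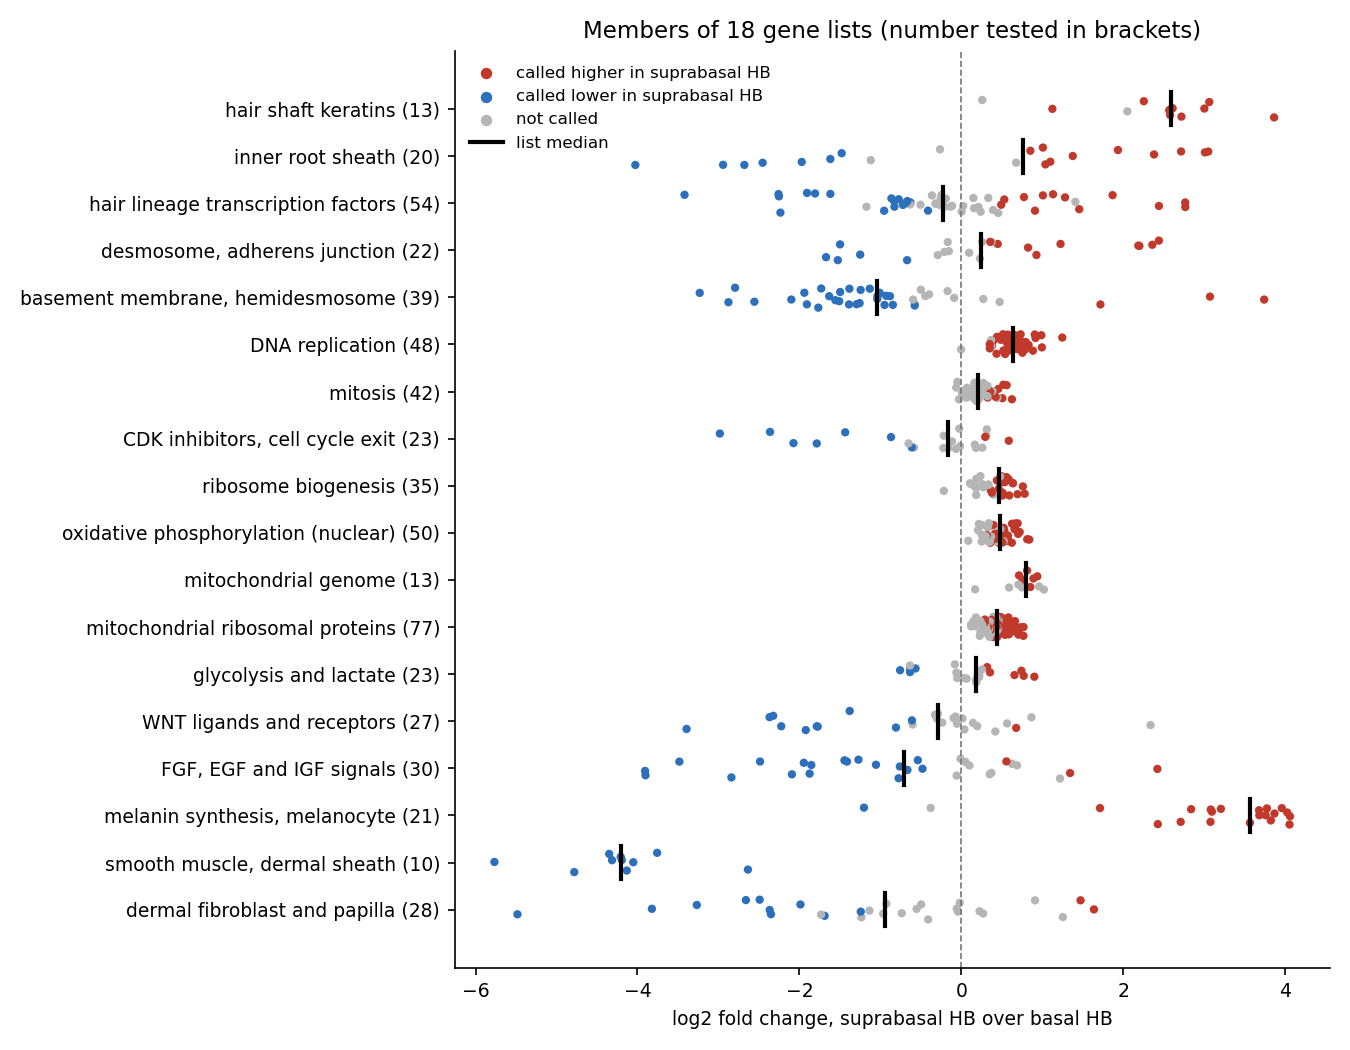
Log2 fold changes (suprabasal HB over basal HB) of the members of 18 gene lists; each point is 1 gene, coloured by its call at an adjusted p of 0.05, and black bars are list medians. Pigment and hair keratin genes spread far right of 0, smooth muscle genes far left, and replication, ribosome and mitochondrial genes lie in a narrow band just right of 0.

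Lipid genes moved both ways. Of 28 tested, 9 were higher and 8 lower, with a median log2 fold change of -0.03, and 4 were higher without basal HB replicate 1, basal HB replicate 2 or suprabasal HB replicate 1. Soat1, which esterifies cholesterol, had 94.0 and 112 CPM in suprabasal HB, against 1004 and 1014 CPM in basal HB. Soat1 was 9.78-fold lower (log2 fold change -3.29 ± 0.16 SE, adjusted p = 1.6e-05). Dgat2, of triglyceride synthesis, had 9.75 and 14.2 CPM in suprabasal HB, against 37.9 and 44.01 CPM in basal HB. Dgat2 was 3.43-fold lower (log2 fold change -1.78 ± 0.21 SE, adjusted p = 5.6e-04). Elovl7, an enzyme that lengthens fatty acids, had 7.58 and 6.67 CPM in suprabasal HB, against 2.78 and 2.78 CPM in basal HB. Elovl7 was 2.56-fold higher (log2 fold change 1.36 ± 0.22 SE, adjusted p = 0.0024). Of 25 cholesterol synthesis genes 4 were higher (16%) and 1 lower (4%), against 13.1% and 14.8% over all genes tested. Their median was 0.11 and turned to -0.16 on log2(TPM + 1), and the lower call did not hold in every fit that left out 1 library. Of 32 genes that supply amino acids and polyamines 11 were higher and 5 lower, with a median of 0.36. The transporter gene Slc7a5, for large neutral amino acids, had 910.4 and 986 CPM in suprabasal HB, against 502 and 502 CPM in basal HB. Slc7a5 was 1.89-fold higher (log2 fold change 0.92 ± 0.14 SE, adjusted p = 0.0017). Slc7a1, for arginine and lysine, had 173 and 154 CPM in suprabasal HB, against 282 and 322 CPM in basal HB. Slc7a1 was 1.85-fold lower (log2 fold change -0.89 ± 0.17 SE, adjusted p = 0.0052). Of the amino acid list, 3 were higher without basal HB replicate 1, 7 without basal HB replicate 2 and 3 without suprabasal HB replicate 2, while 2 were lower without basal HB replicate 2 and 3 without suprabasal HB replicate 2.

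NOTCH pathway genes moved both ways, receptors included. Of 24 tested 7 were higher and 7 lower, with a median log2 fold change of -0.28. Among receptors, Notch1 had 614 and 444 CPM in suprabasal HB, against 171 and 157 CPM in basal HB. Notch1 was 3.22-fold higher (log2 fold change 1.69 ± 0.21 SE, adjusted p = 7.2e-04). Notch3 had 107 and 64.1 CPM in suprabasal HB, against 261 and 267 CPM in basal HB. Notch3 was 3.08-fold lower (log2 fold change -1.62 ± 0.28 SE, adjusted p = 0.0034). Among ligands, Dll1 had 17.2 and 17.4 CPM in suprabasal HB, against 38.5 and 41.9 CPM in basal HB. Dll1 was 2.32-fold lower (log2 fold change -1.21 ± 0.22 SE, adjusted p = 0.0043). Jag2 had 254 and 284 CPM in suprabasal HB, against 515 and 536 CPM in basal HB. Jag2 was 1.95-fold lower (log2 fold change -0.97 ± 0.19 SE, adjusted p = 0.0059). Jag1 had 516 and 430.3 CPM in suprabasal HB, against 365 and 339 CPM in basal HB and was called higher, with the call lost at adjusted p = 0.0708 without HFSC replicate 1, 0.0672 without HFSC replicate 2, 0.0821 without HFSC replicate 3, 0.116 without basal HB replicate 1, 0.185 without basal HB replicate 2 and 0.189 without suprabasal HB replicate 1. Adam10, the protease that cuts NOTCH after it binds a ligand, had 435 and 410.0 CPM in suprabasal HB, against 209 and 215 CPM in basal HB. Adam10 was 1.99-fold higher (log2 fold change 0.99 ± 0.11 SE, adjusted p = 4.0e-04). Among target genes Hes1 had 119 and 97.7 CPM in suprabasal HB, against 129.7 and 139 CPM in basal HB and did not pass (adjusted p = 0.056). No library of one layer overlapped the other in Notch1, Notch3, Dll1, Jag2 or Adam10. The list had 2 higher without basal HB replicate 1, 4 without basal HB replicate 2 and 4 without suprabasal HB replicate 1, and 4 lower without basal HB replicate 2.

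Among growth signals, genes of the FGF, EGF and IGF families and WNT ligands and receptors were more often lower than higher. WNT targets and antagonists moved both ways. Of 30 FGF, EGF and IGF genes 18 were lower and 3 higher, with a median log2 fold change of -0.71, and 10 were lower without either basal HB replicate. The 3 higher members, Areg, Epgn and Erbb3, all of the EGF family, were 0 without basal HB replicate 1 and 1 without basal HB replicate 2 or suprabasal HB replicate 1, and Areg had 1.41 and 0.560 CPM in suprabasal HB, against 0.262 and 0.104 CPM in basal HB. Areg lost its call at adjusted p = 0.0593 without HFSC replicate 3, 0.0754 without basal HB replicate 1, 0.187 without basal HB replicate 2 and 0.206 without suprabasal HB replicate 1, Epgn at adjusted p = 0.0962 without basal HB replicate 1 and 0.0596 without suprabasal HB replicate 1 and Erbb3 at adjusted p = 0.0587 without basal HB replicate 1 and 0.0539 without basal HB replicate 2. Fgf5, the ligand that ends hair growth, had 3.71 and 8.46 CPM in suprabasal HB, against 32.9 and 53.8 CPM in basal HB. Fgf5 was 7.16-fold lower (log2 fold change -2.84 ± 0.42 SE, adjusted p = 0.0016). Igfbp3, which binds insulin-like growth factors, had 21.5 and 15.04 CPM in suprabasal HB, against 215 and 333 CPM in basal HB. Igfbp3 was 14.99-fold lower (log2 fold change -3.91 ± 0.38 SE, adjusted p = 2.1e-04). Of 27 WNT ligands and receptors 10 were lower and 1 higher, with a median of -0.29, and 2 were higher without either ORS replicate. Wls, which carries WNT ligands to the cell surface, had 316 and 281 CPM in suprabasal HB, against 185 and 189 CPM in basal HB. Wls was 1.60-fold higher (log2 fold change 0.68 ± 0.10 SE, adjusted p = 0.0015) though not called on log2(TPM + 1), and Wnt7b, a ligand of hair follicle epithelium, had 3.11 and 4.50 CPM in suprabasal HB, against 18.3 and 20.95 CPM in basal HB. Wnt7b was 5.16-fold lower (log2 fold change -2.37 ± 0.23 SE, adjusted p = 1.9e-04). Of 20 WNT targets and antagonists 4 were higher and 7 lower, with a median of -0.03. Lgr5, the receptor that marks follicle stem cells and lower outer root sheath, had 7.46 and 4.68 CPM in suprabasal HB, against 63.1 and 93.9 CPM in basal HB. Lgr5 was 12.9-fold lower (log2 fold change -3.69 ± 0.31 SE, adjusted p = 1.1e-04). Sfrp1, an antagonist, had 10.9 and 11.2 CPM in suprabasal HB, against 81.4 and 88.9 CPM in basal HB. Sfrp1 was 7.70-fold lower (log2 fold change -2.94 ± 0.30 SE, adjusted p = 2.6e-04). Of this list, 2 were higher without either basal HB replicate, and 4 were lower without basal HB replicate 1, basal HB replicate 2 or suprabasal HB replicate 2.

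Hedgehog pathway genes had 5 of 16 tested lower and none higher, with a median log2 fold change of -0.21. Without basal HB replicate 1, basal HB replicate 2 or suprabasal HB replicate 2, 3 were lower, and without HFSC replicate 2 or ORS replicate 1, 1 was higher. Hhip, which binds and holds back hedgehog, had 5.05 and 1.25 CPM in suprabasal HB, against 42.0 and 32.5 CPM in basal HB. Hhip was 11.7-fold lower (log2 fold change -3.55 ± 0.70 SE, adjusted p = 0.0063). Gli3, a repressor in the pathway, had 192 and 216 CPM in suprabasal HB, against 514 and 459 CPM in basal HB. Gli3 was 2.38-fold lower (log2 fold change -1.25 ± 0.12 SE, adjusted p = 2.3e-04). The lower members were not all inhibitors: Gas1 was 5.1-fold and Cdon 1.94-fold lower. Of 26 BMP pathway genes 10 were lower and 4 higher, with a median of -0.33, and 2 were higher without either basal HB replicate. Target genes split: Id2 had 217 and 193 CPM in suprabasal HB, against 91.8 and 95.2 CPM in basal HB. Id2 was 2.19-fold higher (log2 fold change 1.13 ± 0.15 SE, adjusted p = 9.5e-04). Id3 had 241 and 188 CPM in suprabasal HB, against 149.8 and 155 CPM in basal HB and was called higher, with the call lost at adjusted p = 0.0646 without HFSC replicate 1, 0.0920 without HFSC replicate 2, 0.0701 without HFSC replicate 3, 0.205 without basal HB replicate 1, 0.147 without basal HB replicate 2 and 0.249 without suprabasal HB replicate 1. Id1 had 109 and 85.4 CPM in suprabasal HB, against 154 and 159 CPM in basal HB. Id1 was 1.61-fold lower (log2 fold change -0.69 ± 0.12 SE, adjusted p = 0.0043). Smad7, an inhibitor that the pathway induces, had 76.9 and 75.3 CPM in suprabasal HB, against 147 and 148 CPM in basal HB. Smad7 was 1.94-fold lower (log2 fold change -0.95 ± 0.07 SE, adjusted p = 7.9e-05). Bmp6, a ligand, had 1.81 and 2.10 CPM in suprabasal HB, against 9.12 and 10.4 CPM in basal HB. Bmp6 was 4.99-fold lower (log2 fold change -2.32 ± 0.22 SE, adjusted p = 1.7e-04). In each of these genes, from Hhip to Bmp6, the layers did not overlap.

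Pigment genes had the highest median of the lists given here. Of 21 tested melanocyte genes 19 were higher and 1 lower, with a median log2 fold change of 3.56 against 0 over all genes tested, and their summed level was 15161 and 13671 TPM in suprabasal HB, against 3404 and 2694 TPM in basal HB. Among the enzymes, Tyr, tyrosinase (chromosome 7, 87424771 to 87493512, minus strand), had 956 and 1018 CPM in suprabasal HB, against 87.6 and 58.3 CPM in basal HB. Tyr was 13.5-fold higher (log2 fold change 3.76 ± 0.63 SE, adjusted p = 0.003). Tyrp1, its relative, had 3973 and 4211 CPM in suprabasal HB, against 304 and 189 CPM in basal HB with the call lost at adjusted p = 0.0664 without basal HB replicate 1 and 0.0871 without basal HB replicate 2. Among granule proteins, Pmel, which builds the fibrils of the pigment granule, had 3457 and 3304 CPM in suprabasal HB, against 259 and 147 CPM in basal HB with the call lost at adjusted p = 0.0602 without basal HB replicate 2, and Oca2, a granule channel, had 531 and 556 CPM in suprabasal HB, against 41.6 and 25.2 CPM in basal HB. Oca2 was 16.3-fold higher (log2 fold change 4.02 ± 0.73 SE, adjusted p = 0.0043). Among regulators and receptors, Mitf, the melanocyte master factor, had 265 and 202 CPM in suprabasal HB, against 33.3 and 22.1 CPM in basal HB. Mitf was 8.44-fold higher (log2 fold change 3.08 ± 0.21 SE, adjusted p = 4.5e-05). Sox10 had 155 and 123 CPM in suprabasal HB, against 19.0 and 13.8 CPM in basal HB. Mc1r, the melanocortin receptor, had 242 and 222 CPM in suprabasal HB, against 20.7 and 15.5 CPM in basal HB. Mc1r was 12.8-fold higher (log2 fold change 3.68 ± 0.38 SE, adjusted p = 2.9e-04). Kit, the receptor of stem cell factor, had 418 and 319.6 CPM in suprabasal HB, against 74.99 and 62.3 CPM in basal HB. Kit was 5.37-fold higher (log2 fold change 2.43 ± 0.35 SE, adjusted p = 0.0014). In each of these genes both suprabasal HB libraries lay above both basal HB libraries. Trpm1, with 1451 and 1479 CPM in suprabasal HB, against 187 and 156 CPM in basal HB, lost its call at adjusted p = 0.0537 without basal HB replicate 1 and 0.0612 without basal HB replicate 2. Gpnmb, a granule protein that macrophages also express, was the one lower member at 1229 and 1331 CPM in suprabasal HB, against 2877 and 3016 CPM in basal HB, with its call lost at adjusted p = 0.0798 without basal HB replicate 1, 0.0846 without basal HB replicate 2, 0.0872 without suprabasal HB replicate 1 and 0.0770 without suprabasal HB replicate 2. Tyro3, with 11.5 and 9.33 CPM in suprabasal HB, against 13.8 and 13.3 CPM in basal HB, did not pass (adjusted p = 0.14).

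The ratios of pigment genes to Tyr differed in how far they spread across the 4 hair bulb libraries. In TPM over the TPM of Tyr, the highest library stood above the lowest by under 1.5 times for 8 of 13 genes, at 1.11 times for Dct, 1.12 times for Slc24a5, 1.22 times for Mc1r, 1.23 times for Slc45a2, 1.30 times for Tyrp1, 1.31 times for Oca2, 1.32 times for Mlana and 1.43 times for Pmel. The ratio spread 1.85 times for Mitf, 1.85 times for Trpm1, 1.97 times for Sox10, 3.39 times for Kit and 39.6 times for Gpnmb. The layers did not overlap in this ratio for 11 of the 13 genes, 4 with the higher ratio in suprabasal HB and 7 with the lower. A ratio with a small spread could thus still differ by layer. In level, 68.5% of all genes tested did not overlap, and no such share was computed for ratios. All 13 ratios have Tyr as divisor, so they are not separate observations. Trpm1 had 1.71 and 1.64 times the TPM of Tyr in suprabasal HB, against 2.40 and 3.03 times in basal HB. The 2 basal HB libraries also differed from each other: replicate 1 was above replicate 2 for 19 of the 21 genes, with a median ratio of 1.37, while in suprabasal HB replicate 1 was above replicate 2 for 12 of 21, with a median of 1.05. These ratios share the libraries they are computed from and carry no test. Melanocyte genes took 2.12 ± 0.0602% of all counts in suprabasal HB, against 0.493 ± 0.0539% in basal HB (mean ± SD, n = 2 each).

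**Figure D4:**
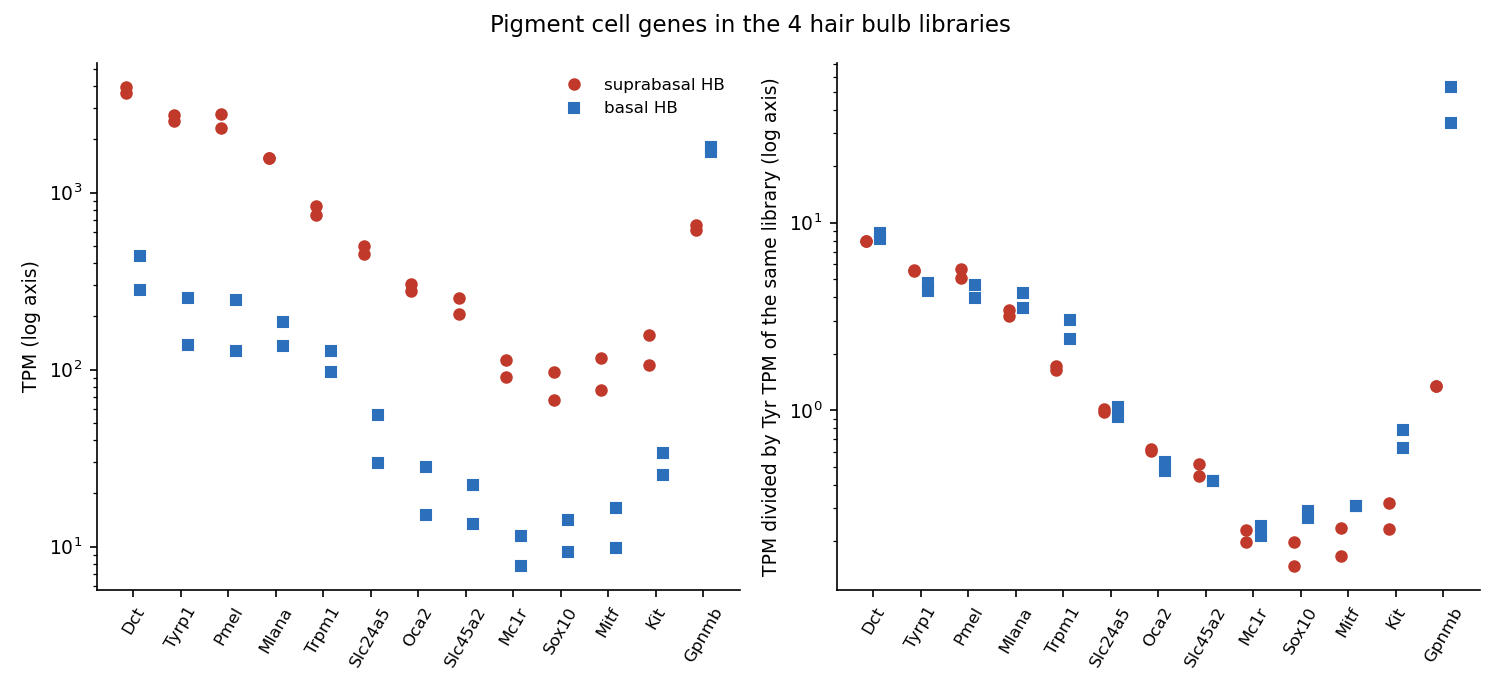
TPM of 13 pigment cell genes (left, log axis) and the same divided by the TPM of Tyr in that library (right, log axis); circles are suprabasal HB and squares basal HB libraries. The levels of the 2 layers stand apart for all genes shown and the ratios spread under 1.5 times for 8 of 13 genes, more for Mitf, Trpm1, Sox10 and Kit, and 39.6 times for Gpnmb.

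Starting regions of 3 pigment enzymes are shown because they share a motif. Capitals mark TCATGTG, the core of the M-box that MITF is known to bind, on either strand, and the windows are chr7:87493463-87493762 (minus strand) for Tyr, chr4:80833963-80834262 (plus strand) for Tyrp1 and chr14:118052197-118052496 (minus strand) for Dct, from RefSeq on GRCm38.p6.
Tyr: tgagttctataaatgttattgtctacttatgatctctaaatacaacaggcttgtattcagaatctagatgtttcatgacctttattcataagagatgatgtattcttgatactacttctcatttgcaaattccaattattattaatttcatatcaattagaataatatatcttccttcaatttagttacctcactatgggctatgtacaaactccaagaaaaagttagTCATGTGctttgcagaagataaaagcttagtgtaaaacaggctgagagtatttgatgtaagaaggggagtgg
Tyrp1: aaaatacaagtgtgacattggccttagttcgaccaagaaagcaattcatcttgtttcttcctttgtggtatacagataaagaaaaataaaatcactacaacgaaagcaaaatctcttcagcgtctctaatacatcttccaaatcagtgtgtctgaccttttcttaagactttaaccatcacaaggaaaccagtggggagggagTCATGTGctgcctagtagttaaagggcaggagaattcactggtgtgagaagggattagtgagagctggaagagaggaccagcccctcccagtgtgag
Dct: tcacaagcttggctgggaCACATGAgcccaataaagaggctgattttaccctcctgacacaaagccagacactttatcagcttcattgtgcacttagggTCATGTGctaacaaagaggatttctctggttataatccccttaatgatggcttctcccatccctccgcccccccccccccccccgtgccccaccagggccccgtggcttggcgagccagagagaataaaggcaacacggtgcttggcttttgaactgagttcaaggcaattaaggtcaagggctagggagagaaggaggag
TCATGTG on either strand was in 6 of the 14 melanocyte genes with a window (42.9%), against 4.31% of 27025 genes, and the match describes the letters only.

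Genes that move pigment granules and pass them to keratinocytes had 8 of 19 tested higher and 2 lower, with a median log2 fold change of 0.19 that turned to -0.16 on log2(TPM + 1). Rab27a and Mlph, which tether the granule to its motor, had 174 and 149 CPM in suprabasal HB, against 20.95 and 15.5 CPM in basal HB and 223 and 206.6 CPM in suprabasal HB, against 40.1 and 33.6 CPM in basal HB in that order. Rab27a was 8.85-fold higher (log2 fold change 3.15 ± 0.32 SE, adjusted p = 2.7e-04). Myo5a, the motor, had 633 and 568 CPM in suprabasal HB, against 426 and 396 CPM in basal HB. Myo5a was 1.46-fold higher (log2 fold change 0.54 ± 0.10 SE, adjusted p = 0.0048) though not called on log2(TPM + 1). Kitl, the stem cell factor that draws melanocytes to the follicle and is made by the epithelium, went the other way at 499 and 621 CPM in suprabasal HB, against 1409.8 and 1317 CPM in basal HB, with its call lost at adjusted p = 0.0542 without HFSC replicate 1, 0.0518 without HFSC replicate 2, 0.0614 without HFSC replicate 3, 0.149 without basal HB replicate 1, 0.110 without basal HB replicate 2, 0.160 without suprabasal HB replicate 1 and 0.102 without suprabasal HB replicate 2. Edn1, another signal to melanocytes, had 1.40 and 0.918 CPM in suprabasal HB, against 2.71 and 3.81 CPM in basal HB. Edn1 was 2.80-fold lower (log2 fold change -1.48 ± 0.25 SE, adjusted p = 0.0029).

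Among markers of cells outside the epithelium, smooth muscle genes differed throughout, dermal genes in part, and the shares called among immune, endothelial and blood genes lay near the 13.1% higher and 14.8% lower over all genes tested or below them. All 10 smooth muscle and dermal sheath genes were lower, with a median log2 fold change of -4.20: Myh11, smooth muscle myosin, had 8.95 and 5.33 CPM in suprabasal HB, against 385 and 396 CPM in basal HB. Myh11 was 54.4-fold lower (log2 fold change -5.77 ± 0.60 SE, adjusted p = 2.8e-04). Acta2, smooth muscle actin, had 33.8 and 20.6 CPM in suprabasal HB, against 498 and 585 CPM in basal HB. Acta2 was 19.9-fold lower (log2 fold change -4.31 ± 0.30 SE, adjusted p = 5.0e-05). Actg2, at 2.38 and 1.37 CPM in suprabasal HB, against 12.5 and 10.8 CPM in basal HB, lost its call at adjusted p = 0.0723 without basal HB replicate 1, 0.0519 without basal HB replicate 2 and 0.0985 without suprabasal HB replicate 2. Of 28 dermal fibroblast and papilla genes 10 were lower and 2 higher, with a median of -0.95, while the summed level of the list was 2532 and 1219 TPM in suprabasal HB, against 2353 and 1959 TPM in basal HB. Corin, a protease of the dermal papilla, had 11.6 and 5.37 CPM in suprabasal HB, against 85.6 and 78.03 CPM in basal HB. Corin was 9.63-fold lower (log2 fold change -3.27 ± 0.48 SE, adjusted p = 0.0015). Dcn, the matrix protein decorin, had 485 and 340.4 CPM in suprabasal HB, against 135 and 131 CPM in basal HB. Dcn was 3.11-fold higher (log2 fold change 1.64 ± 0.29 SE, adjusted p = 0.0041). Of this list 4 were lower without basal HB replicate 1 and 3 without suprabasal HB replicate 2. Of this list 1 was higher without any 1 HFSC replicate, either basal HB replicate or suprabasal HB replicate 1. Immune cell genes had 3 of 17 tested lower (17.6%) and 1 higher (5.88%), the higher one being Kit, which is also on the melanocyte list. These counts varied with the hair bulb library left out. The median log2 fold change was -0.49, and 15 of the 17 were below 0. The list summed to 265 and 308 TPM in suprabasal HB, against 333 and 329 TPM in basal HB. Kit alone gave 157 and 107 TPM of the sums in suprabasal HB, against 33.6 and 25.3 TPM in basal HB. Endothelial and blood genes summed to 129 and 293 TPM in suprabasal HB, against 137 and 159 TPM in basal HB, with 2 of 15 higher (13.3%) and 3 lower (20%), where none was higher without either basal HB replicate or suprabasal HB replicate 2, 5 were without suprabasal HB replicate 1 and 1 was without HFSC replicate 1 or HFSC replicate 2. Ptprc, which all white blood cells express, had 1.24 and 1.23 TPM in suprabasal HB, against 2.72 and 2.03 TPM in basal HB, and did not pass (adjusted p = 0.22). The 3 lower immune cell genes were Cd74, H2-Aa and H2-Ab1. Cd74 had 24.5 and 27.8 TPM in suprabasal HB, against 76.2 and 76.9 TPM in basal HB. It was 2.44-fold lower (adjusted p = 0.0062), and H2-Aa and H2-Ab1 were 2.56-fold and 2.26-fold lower. The part of these cells in the results, including the lower basement membrane genes, was not tested.

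Genes listed for epidermal differentiation moved both ways. Of 17 epidermal differentiation genes 4 were higher (23.5%) and 3 lower (17.6%), against 13.1% and 14.8% over all genes tested. Their median log2 fold change was 1.2. Ivl, which encodes involucrin of the cornified envelope, had 14.04 and 19.2 CPM in suprabasal HB, against 141 and 153 CPM in basal HB. Ivl was 8.82-fold lower (log2 fold change -3.14 ± 0.21 SE, adjusted p = 4.4e-05). In the ORS and HFSC libraries it ranged from 9.92 to 18.4 CPM. Spink5, a protease inhibitor of the epidermis, had 0.320 and 0.403 CPM in suprabasal HB, against 2.33 and 2.50 CPM in basal HB. The count of higher members changed with the library left out, and a fit with 1 library in a layer can call fewer genes. Of 84 cytosolic ribosomal proteins 8 were higher (9.52%) and none lower, with a median of 0.35, and the share higher was below that over all genes tested. The count varied with the hair bulb library left out and was 4 without any 1 HFSC replicate.

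Sebaceous gland genes had 6 of 15 tested lower and 1 higher, with a median of -0.60. Their summed level was 723 and 732 TPM in suprabasal HB, against 869 and 801 TPM in basal HB. The higher member, Mgst1, alone gave 518 and 571 TPM of the sums in suprabasal HB, against 212 and 205 TPM in basal HB. Genes of the bulge, where stem cells reside, had 10 of 18 lower and 1 higher, with a median of -0.81. The higher call was lost without either basal HB replicate or suprabasal HB replicate 1. Fgf18, a bulge signal, had 0.339 and 0.291 CPM in suprabasal HB, against 1.59 and 1.98 CPM in basal HB. Fgf18 was 5.604-fold lower (log2 fold change -2.49 ± 0.35 SE, adjusted p = 0.0013). Of 24 immediate early and heat shock genes, which respond within minutes to handling and stress, 13 were lower and none higher, with a median of -0.87, and 7 were lower without basal HB replicate 1 and 1 higher without HFSC replicate 1. Fos had 204 and 115 CPM in suprabasal HB, against 479.6 and 449 CPM in basal HB. Fos was 2.91-fold lower (log2 fold change -1.54 ± 0.24 SE, adjusted p = 0.0021). The surface proteins used for sorting chose the cells and are given as levels only: Itga6 had 121 and 131 CPM in suprabasal HB, against 222 and 242 CPM in basal HB, Itgb1 311 and 284 CPM in suprabasal HB, against 501 and 568 CPM in basal HB and Cdh3, which encodes P-cadherin, 362 and 317 CPM in suprabasal HB, against 278 and 301 CPM in basal HB. Ly6a, which encodes Sca-1, had 12.7 and 9.87 CPM in suprabasal HB, against 4.68 and 4.92 CPM in basal HB, and Cd34 had 26.1 and 18.4 CPM in suprabasal HB, against 34.7 and 41.5 CPM in basal HB. Krt5 and Krt14, keratins of basal keratinocytes, had 709.9 and 719.9 CPM in suprabasal HB, against 1115 and 1291 CPM in basal HB and 117 and 133 CPM in suprabasal HB, against 229.9 and 260.0 CPM in basal HB in that order, and without basal HB replicate 2 their calls were lost, at an adjusted p of 0.0745 for Krt5 and 0.0515 for Krt14.

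**Figure D5:**
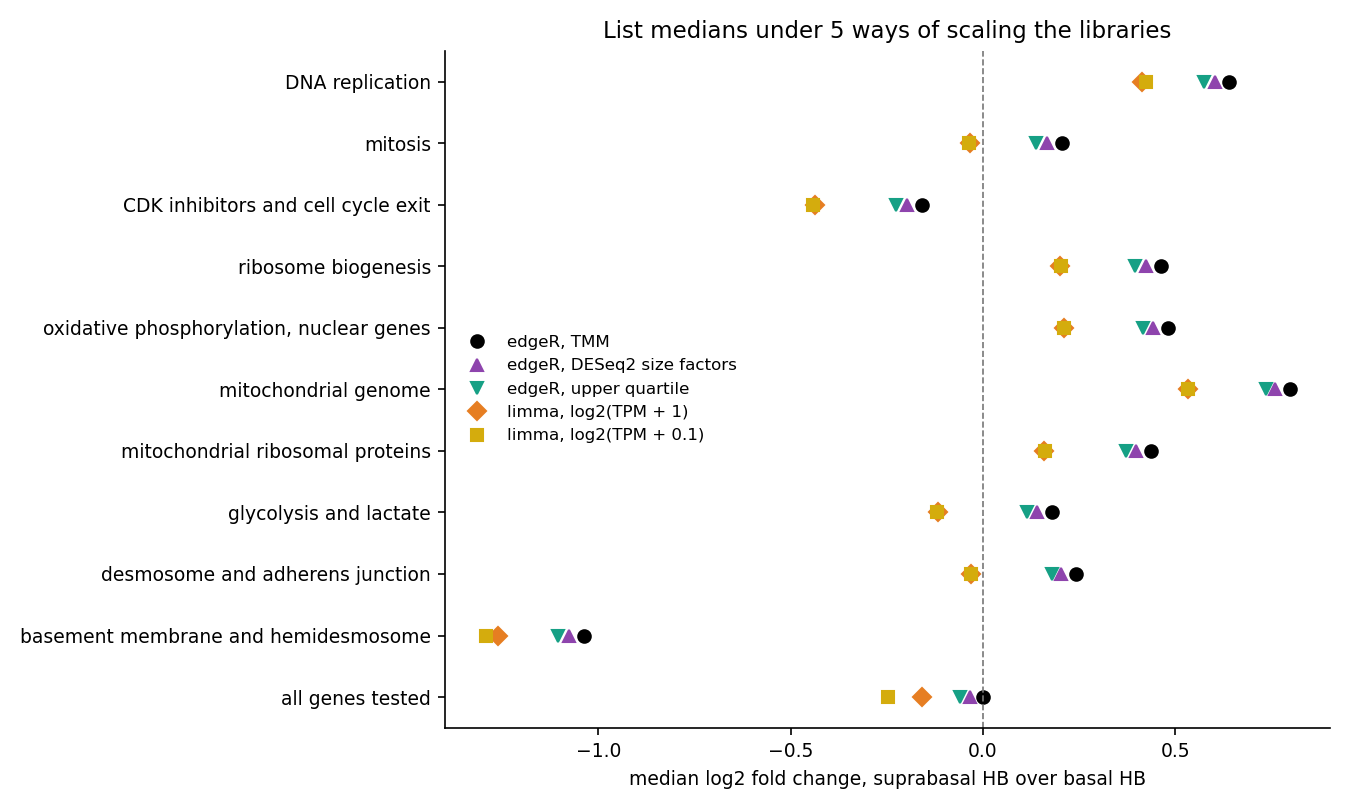
Median log2 fold change (suprabasal HB over basal HB) of 10 gene lists and of all genes tested, under 5 ways of scaling the libraries, each symbol 1 way. The replication, ribosome and mitochondrial lists stay right of 0 and the basement membrane list left of it under all 5, while mitosis, glycolysis and desmosome medians cross 0 on the TPM scales.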

How the data were processed

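Bulk RNA was sequenced from 9 sorted cell samples of mouse back skin, of which 4 are compared. The authors deposited 1 gene table per sample with RSEM expected counts and TPM. Per the submitters' processing notes, the tools were Bowtie2 2.2.9 and RSEM 1.2.30 and the build mm10. Parameters, annotation release and counting strand are not given in the sources used here. The deposited TPM divide by transcript length and sum to a fixed total, so a few abundant genes lower the rest.

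Each expected count was rounded to a whole number, and all were tested with edgeR 4.0.16 in R 4.3.3 (quasi-likelihood F-test, TMM scaling, default low-count filter on the 4 populations, 2-sided, Benjamini-Hochberg over 20491 genes, threshold 0.05) in 1 fit of 9 libraries with 5 residual degrees of freedom, contrast suprabasal HB minus basal HB. CPM are counts scaled by library size times the TMM factor. SE is the log2 fold change divided by the root of F. Totals ran from 45438637 to 63511683 counts in the 4 libraries. Gene positions come from GENCODE M21 (GRCm38), which matched 98.9% of the rows. The script was tested on simulated data. A table of TPM for the whole series was not used here. Rows of spike-in RNA (92 per table) held 0 counts and were left out.

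Alternatives were DESeq2 1.42.0 (its size factors, and its Wald test), upper-quartile scaling, no filter and a stricter one, the 4 hair bulb libraries alone, a replicate block, limma 3.58.1 on log2(TPM + 1) and log2(TPM + 0.1), and leaving out each library in turn. The block within the 4 hair bulb libraries was added after seeing the data. The 4 libraries and the gene lists were chosen with earlier results of these data known. Genes named were drawn from the 10 largest changes in each direction, the 4 largest called changes of each list in each direction, the members of the keratin, sheath, pigment, cell cycle exit, G1 and sort lists, set cell type markers, and list members that did not pass, and not every gene so eligible is named. Named outside that rule, after their values were seen, were Actg2, Id1, Jag1, Mcm6, Myo5a and Smad7. One gene that the rule names is not reported here.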

Additional observations from a re-analysis of the deposited data

How the results depend on the processing

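Of 173 named genes, 157 passed the test, 121 of these kept their call without each of the 9 libraries in turn and 36 lost it without at least 1. On both TPM scales 17 named genes lost their call, among them Pdk1, Mybl2, Wls and Myo5a. These counts of named genes leave out Cd74, H2-Aa, H2-Ab1, Krt1, Krt10, Krt2, Dmkn, Crnn, Elovl4, Mgst1, Gas1 and Cdon. Sign changed only for genes that had not passed: leaving out single libraries, Krt39 ranged from -0.298 to 0.618 and Cdsn from -0.785 to 1.315. On log2(TPM + 1) and log2(TPM + 0.1), Cdh3 was at -0.0401 and -0.0405 and Krt39 at -0.0199 and -0.0784.

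Over the 9 fits that leave out 1 library, 873 to 2720 genes were higher and 1843 to 3377 lower. Members called higher ranged from 6 to 10 in inner root sheath, 7 to 12 in transcription factors, 1 to 8 in desmosome, 27 to 45 in DNA replication, 1 to 10 in mitosis, 5 to 21 in ribosome biogenesis, 1 to 34 in oxidative phosphorylation, 0 to 9 in the mitochondrial genome, 2 to 53 in mitochondrial ribosomal proteins and 3 to 5 in glycolysis. Members called lower ranged from 1 to 6 in glycolysis, 3 to 12 in dermal genes, 10 to 18 in FGF, EGF and IGF signals and 7 to 17 in immediate early genes. Counts of hair shaft keratins and pigment genes called higher, and of basement membrane and smooth muscle genes called lower, stayed within 1.5 times in every setting run.

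On log2(TPM + 1) and log2(TPM + 0.1), 1098 and 999 genes were higher. The members called higher were 4 and 4 in desmosome, 24 and 23 in DNA replication, 0 and 0 in mitosis, 8 and 8 in ribosome biogenesis, 7 and 8 in oxidative phosphorylation, 2 and 3 in the mitochondrial genome, 12 and 12 in mitochondrial ribosomal proteins, and 2 and 2 in glycolysis. Members called lower were 8 and 8 in desmosome and 12 and 12 in cell cycle exit. As a share of deposited TPM, the mitochondrial genome took 9.05% in suprabasal HB and 6.36% in basal HB, melanocyte genes 1.44% and 0.305%, hair keratins 0.192% in suprabasal HB and the sheath list 0.437% in basal HB. Of nuclear counts only, the shares were 2.22% for melanocyte genes and 0.224% for hair keratins in suprabasal HB, and 0.826% for the sheath list in basal HB. The cause of these shifts was not tested.

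The replicate numbers are not stated to pair samples, and deviations of same-numbered hair bulb libraries correlated at 0.121 over 20491 genes. With the replicate block 2385 genes were higher and 2829 lower, with 4 mitosis genes and 30 mitochondrial ribosomal proteins called higher. With the block within the 4 hair bulb libraries, 3790 were higher and 3826 lower, with 11 mitochondrial genome genes higher and 17 dermal genes lower. With 2 libraries a layer, the number of samples limits what can be called.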

Other observations

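The sex-linked transcripts also differed among the libraries outside the hair bulb. Xist had 75.22 expected counts in ORS replicate 1 and 130611.42 in ORS replicate 2, while Ddx3y had 6304.15 and 4629.1 in the same libraries. In the 3 HFSC libraries Xist had 26823.13 to 39532.77 expected counts and Ddx3y 0 to 1.25.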
